A study of Macaca mulatta with 30 samples.

Results

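Cytosolic ribosomal proteins are the protein components of the ribosomes that translate nuclear-encoded messages. Their genes were taken from the array table by name. A probe set was included if its only annotated gene symbol began with RPL, RPLP or RPS followed by a number, after RPS6K kinases, the sex-linked RPS4X and RPS4Y genes and names that mark pseudogenes had been left out. The rule found 59 of 40489 probe sets, and the brightest probe set of each gene, by its mean over all arrays, gave 48 of the 15534 genes with a single symbol. By name alone, 15 were counted with the small (40S) subunit and 33, paralogs among them, with the large (60S) subunit.

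A ribosome holds each of its core proteins in a fixed number of copies, and cells make these proteins in step with ribosomal RNA. Most of their messages begin with a 5′ terminal oligopyrimidine (TOP) tract, through which the kinase complex mTORC1 and the binding protein LARP1 control translation of the whole group together. In neurons, ribosomes lie in the cell body and along dendrites and axons, where local protein synthesis serves synapses.

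The tissue came from frozen post-mortem brains of 5 untreated rhesus macaques (Macaca mulatta). In each hemisphere 3 regions were sampled. VFC is ventrolateral prefrontal cortex at the lower limb of the arcuate sulcus and corresponds to part of Broca's area in humans, STC is posterior superior temporal cortex and corresponds to Wernicke's area, and M1C is primary motor cortex where it controls the forelimb. All 5 animals gave every region on both sides, 1 array each, which made 30 arrays. Animals 1, 2 and 3 were females of 7.3, 5.5 and 8.6 years, and animals 4 and 5 were males of 4.2 and 2.0 years, so that sex and age cannot be told apart from animal. The values are log2 intensities. The pieces held all cell types of the cortex, and fewer cells of a type and less RNA per cell cannot be told apart in them.

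By their deviations from the group means, 28 of 30 arrays lay closest to the other arrays of their own animal. The exceptions were the left M1C array of animal 3, with a mean r of -0.059 to its own animal and 0.085 to animal 4, and the right STC array of animal 4, with 0.087 to its own animal and 0.20 to animal 3. From earlier results of these data, a further 2 arrays (right STC of animal 3, left VFC of animal 4) were in doubt as mixed samples. Many of the results are therefore also given without the first 2 arrays and without all 4. Array medians lay between 6.57 and 6.64 on the log2 scale.

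Of the 48 genes, 38 had a mean level above the filter for dim probe sets (6.04 on the log2 scale) and were tested, 13 of the 40S and 25 of the 60S subunit. Their mean levels ran between 6.27 and 12.88. The other 10 (RPL4, RPL5, RPL10L, RPL19, RPL24, RPL28, RPL35, RPL39L, RPS7 and RPS29) had means of 3.35 to 5.94 and were not tested. Probes differ in brightness, so these levels do not rank the genes. A further 16 ribosomal protein symbols, among them RPL3, RPL10, RPLP1 and RPS6, occurred only in probe sets annotated with several genes and were left out. Ribosomal protein genes have many near-identical processed pseudogenes, and a probe set of this family can also read transcripts of such copies.

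Between prefrontal and motor cortex the ribosomal protein genes differed by about as much as other genes, with a median absolute log2 difference of 0.073, against 0.069 over all tested probe sets. RPL12, a protein at the base of the stalk where elongation factors bind, was higher in VFC than in M1C, by 1.10-fold, and was the only 1 of the 38 genes past the threshold of limma adjusted p under 0.05 (2.63%, against 10.5% of all 24292 tested probe sets, 5.19% higher in VFC and 5.32% lower). Most of the other genes read slightly higher in VFC. The log2 difference was above 0 for 32 of 38 (84.2%, against 51.2% of all tested probe sets), with a median of 0.060, against 0.0028 over all tested probe sets. It was above 0 for 31 genes without the 2 arrays and for 32 without the 4. The lowest was -0.13 (RPS26) and the highest 0.16 (RPS15).

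RPL12 had levels of 9.32, 9.12, 9.05, 9.10 and 9.33 in VFC of animals 1 to 5, against 9.09, 9.03, 8.92, 9.03 and 9.19 in M1C of the same animals, each the mean of both hemispheres. VFC was above M1C in every animal, while the ranges of the 2 regions overlapped because animals 1 and 5 were high in both. The difference was 0.13 ± 0.037 (SE, n = 5 animals, limma adjusted p = 0.0415). The call was lost when any 1 animal was left out (limma adjusted p = 0.0903 to 0.155) in a fit without animal as a block (adjusted p = 0.353) and without the filter for dim probe sets (adjusted p = 0.0943). It remained without the 2 arrays (0.14, adjusted p = 0.0309) and without the 4 arrays (0.14, adjusted p = 0.0316). A second, dimmer RPL12 probe set read 0.19 higher in VFC (limma adjusted p = 0.00957), and its values followed those of the first over the 30 arrays with r = 0.93.

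RPL15, a core protein of the large subunit, came next by p. Its levels in animals 1 to 5 were 11.15, 11.10, 11.09, 11.04 and 11.26 in VFC, against 11.05, 10.88, 11.01, 10.94 and 11.10 in M1C. VFC was again higher in 5 of 5 animals, and the difference was 0.13 ± 0.040 (limma adjusted p = 0.0591). RPS15, which lies near the decoding site of the small subunit, had 8.30, 8.19, 8.71, 8.44 and 8.21 in VFC, against 8.06, 8.18, 8.31, 8.32 and 8.16 in M1C. The gap was wide in animals 1 and 3 and close to 0 in animal 2 (0.16 ± 0.058, adjusted p = 0.104). RPL18, a large subunit protein, read 0.11 ± 0.046 higher in VFC, in 4 of 5 animals (adjusted p = 0.149).

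RPS28, a small subunit protein near the exit of the messenger RNA, ran the other way. Its levels were 10.54, 10.50, 10.44, 10.55 and 10.33 in VFC, against 10.54, 10.68, 10.56, 10.64 and 10.47 in M1C. VFC was lower in 5 of 5 animals, though hardly in animal 1, and the difference was -0.11 ± 0.042 (limma adjusted p = 0.122). In all, 7 of the 38 genes had an unadjusted p under 0.05 (18.4%, against 24.3% of all tested probe sets), and 5 moved the same way in 5 of 5 animals (4 of them higher in VFC), where 20.8% of all tested probe sets did. No gene had ranges over the 5 animals that were separate between VFC and M1C, against 4.71% of all tested probe sets.

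**Figure D1:**
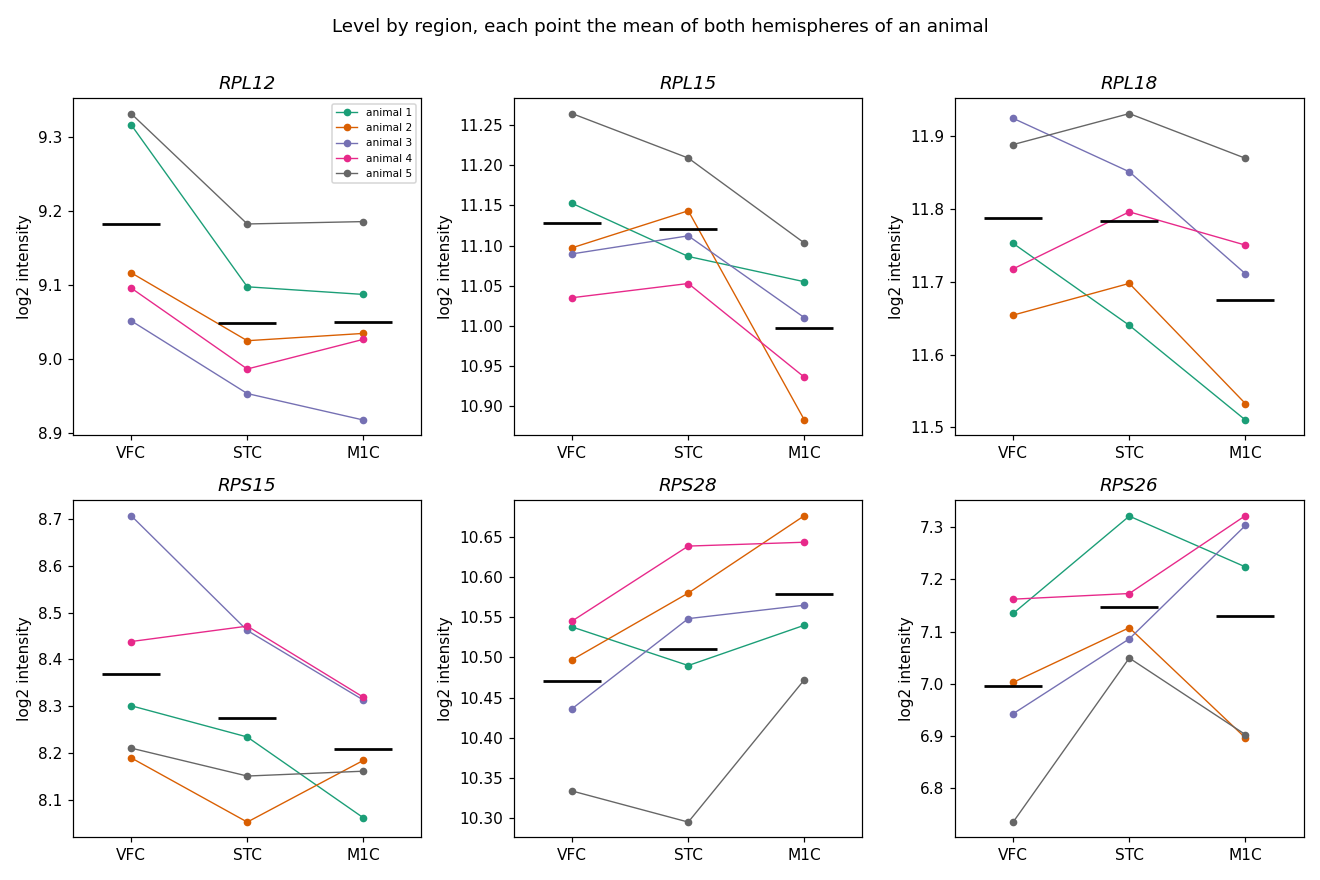
Log2 intensity of 6 ribosomal protein genes in VFC, STC and M1C (x axis); each point is the mean of both hemispheres of an animal, lines join the points of an animal and black bars are means of 5 animals. RPL12 is highest in VFC in every animal (9.05 to 9.33, against 8.92 to 9.19 in M1C), and in each panel the animals lie further apart than the region means.

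The mean over the 38 genes of an animal gave the same picture. It was 9.11, 8.98, 9.05, 9.02 and 9.10 in VFC of animals 1 to 5, against 8.99, 8.96, 9.01, 8.99 and 9.08 in M1C. VFC was above M1C in each animal, most in animal 1. For the 60S subunit 22 of 25 genes read higher in VFC (median 0.072), and the mean over its genes was above that of M1C in 5 of 5 animals. For the 40S subunit 10 of 13 did (median 0.051), but the animals were not alike. The mean over the 40S genes was 9.22, 9.03, 9.20, 9.17 and 9.23 in VFC of animals 1 to 5, against 9.05, 9.11, 9.15, 9.17 and 9.22 in M1C. VFC was higher in animals 1 and 3, nearly equal in animals 4 and 5 and lower in animal 2. Some marker genes of cell types differed far more between these pieces. Of the oligodendrocyte markers, 7 of 7 measured passed the adjusted threshold as lower in VFC (5.32% of all tested probe sets). Their mean level over the list was 8.50 to 9.83 in VFC, against 9.92 to 10.47 in M1C. All 4 measured markers of neurons with large, fast-conducting axons passed as lower too (8.30 to 9.32 in VFC, against 9.69 to 10.31 in M1C). All 4 meningeal markers read higher in VFC (7.59 to 8.24, against 7.24 to 7.73), and 3 of them passed (5.19% of all tested probe sets). The part of this difference in tissue make-up in the values of RPL12 and the other ribosomal protein genes was not tested.

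Between superior temporal and motor cortex limma called 0 of the 38 genes (2.36% of all tested probe sets). Before adjustment 6 had a p under 0.05 (15.8%, against 19.4%). The difference was above 0 for 26 of 38, or 68.4% against 52.2% of all tested probe sets, and its median was 0.018. It was above 0 for 24 genes without the 2 arrays and for 27 without the 4. RPL15 had the smallest p: 11.09, 11.14, 11.11, 11.05 and 11.21 in STC, against the M1C levels given above. STC was higher in 5 of 5 animals (0.12 ± 0.040, limma adjusted p = 0.122). VFC and STC thus stood at almost the same RPL15 level, with means of 11.13 ± 0.087 in VFC and 11.12 ± 0.060 in STC (SD, n = 5 each), above that of 11.00 ± 0.089 in M1C.

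RPL7A, a large subunit protein, had 7.57, 7.66, 7.42, 7.54 and 7.69 in STC, against 7.43, 7.31, 7.41, 7.40 and 7.62 in M1C. STC was higher in every animal, with nearly equal values in animal 3 (0.14 ± 0.055, limma adjusted p = 0.178). RPL18 read 0.11 higher (adjusted p = 0.22) and RPS14, a small subunit protein, 0.16 higher (adjusted p = 0.206). The largest difference in size was that of RPL26L1, a paralog of RPL26 that differs from it in very few amino acids. Its mean over the 30 arrays was 6.30, near the filter at 6.04. RPL26L1 had 6.13, 6.40, 6.38, 6.04 and 5.99 in STC, against 6.34, 6.47, 6.48, 6.54 and 6.27 in M1C. STC was lower in 5 of 5 animals (-0.23 ± 0.098, adjusted p = 0.216; -0.29 without the 4 arrays, adjusted p = 0.067). Of the 38 genes, 7 moved the same way in 5 of 5 animals (19.9% of all tested probe sets), 5 of them higher in STC.

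Between prefrontal and superior temporal cortex limma likewise called 0 of the 38 genes (0.214% of all tested probe sets), and 3 had an unadjusted p under 0.05 (7.89%, against 13.4%). RPL12 again had the smallest p, with STC levels of 9.10, 9.02, 8.95, 8.99 and 9.18 that all lay under the VFC levels of the same animal (0.13 ± 0.037, limma adjusted p = 0.138). RPL12 levels in STC and M1C differed by -0.0014. RPS10, a small subunit protein on the side where the messenger RNA enters, had 10.34, 10.08, 10.33, 10.30 and 10.40 in VFC, against 10.11, 9.87, 10.11, 10.25 and 10.24 in STC. VFC was higher in 5 of 5 animals (0.17 ± 0.055, adjusted p = 0.185). RPS26, which contacts the messenger RNA just upstream of the start codon, was lower in VFC in 5 of 5 animals (-0.15 ± 0.066, adjusted p = 0.341), and RPL7A in 4 of 5 (-0.12, adjusted p = 0.389). RPL27A read 0.13 higher (adjusted p = 0.435). Of the 38 genes, 3 moved the same way in 5 of 5 animals (12.6% of all tested probe sets), 2 of them higher in VFC. Over the 38 genes, 30 read higher in VFC (78.9%, against 48.1% of all tested probe sets), with a median of 0.021, and 31 and 26 did so without the 2 and the 4 arrays.

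**Figure D2:**
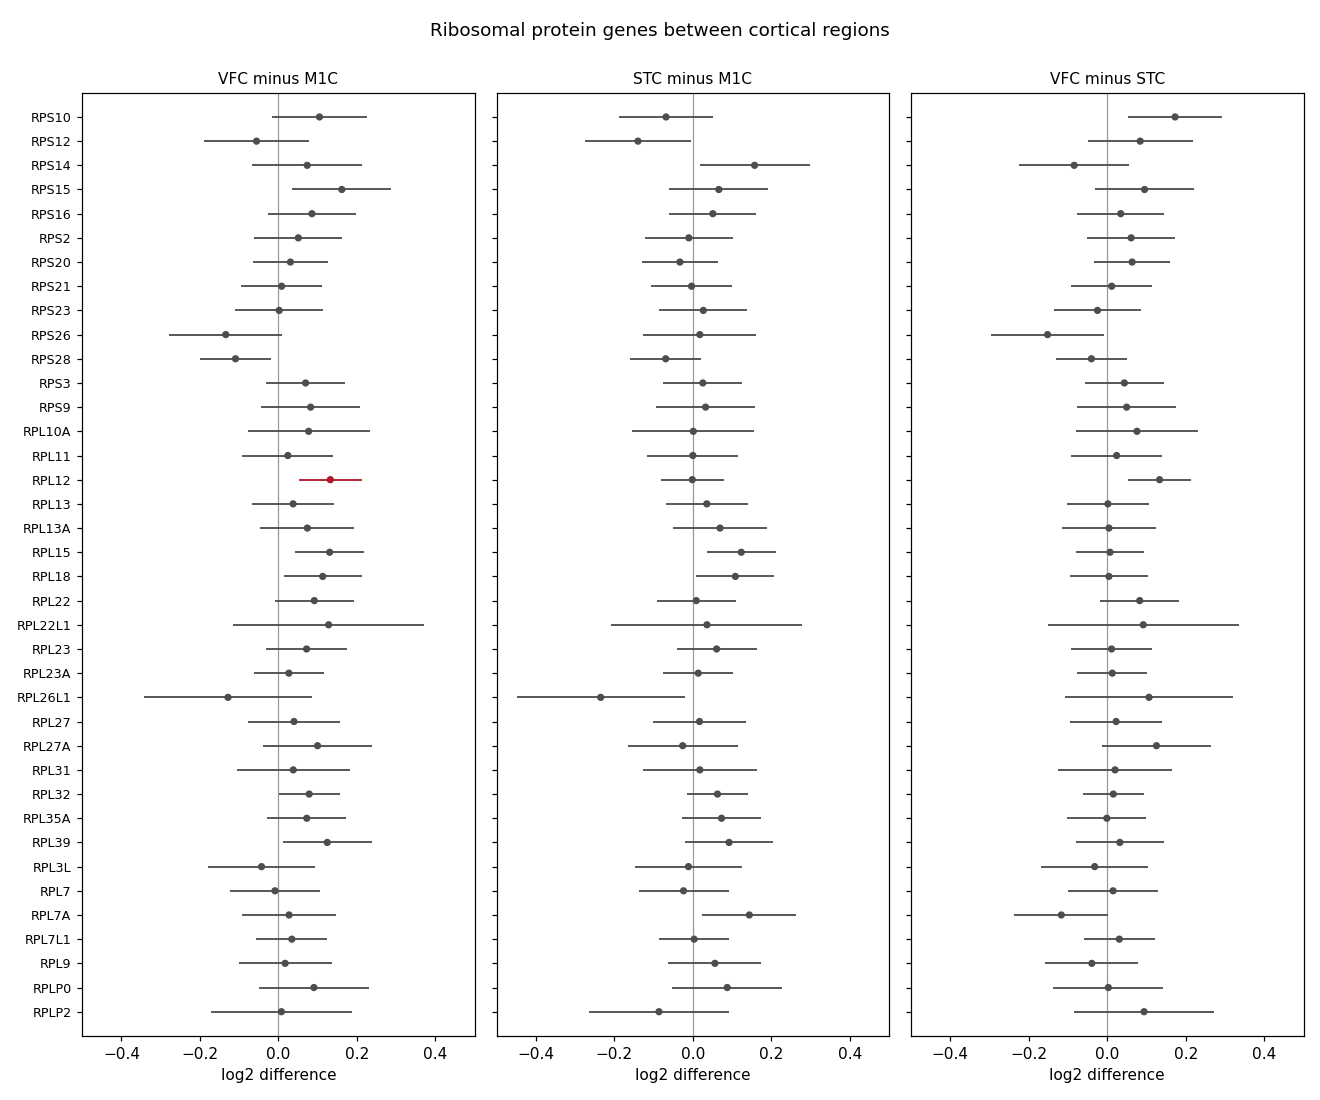
Log2 differences between regions (x axis) for the 38 tested ribosomal protein genes (y axis); points are limma estimates over 5 animals and bars 95% intervals, with RPL12 in VFC minus M1C, the 1 call, in red. All points but that of RPL26L1 in STC minus M1C (-0.23) lie between -0.15 and 0.17, and the widest intervals belong to RPL22L1 and RPL26L1.

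The intervals limit what the data allow. In VFC minus M1C the 95% interval of 34 of 38 genes lay wholly within 0.25 of 0 on the log2 scale, and its outermost bound was 0.37, or 1.29-fold, for RPL22L1. In STC minus M1C 32 genes did so, with an outermost bound of -0.45 (RPL26L1, 1.36-fold), and in VFC minus STC 32 genes, with 0.34 (RPL22L1, 1.26-fold).

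The study compared the hemispheres, and no ribosomal protein gene passed the adjusted threshold between left and right. Averaged over the regions, limma called 0 of 38 genes (0% of all tested probe sets), and 0 reached an unadjusted p under 0.05, as 6.62% of all tested probe sets did. In 5 of 5 animals the difference had 1 sign for 1 gene, RPL7L1 (-0.026), against 7.58% of all tested probe sets. The median left minus right difference was 0.0064, and the 95% interval of 37 of 38 genes lay within 0.25 of 0. The gene outside was RPL22L1 (-0.11 ± 0.078), whose interval reached -0.29, or 1.22-fold. The smallest p belonged to RPL23A, which lies at the mouth of the exit tunnel for the new peptide (-0.10 ± 0.054, 4 of 5 animals, limma adjusted p = 0.794). RPL31, also near that mouth, had -0.090 ± 0.048 (adjusted p = 0.801) and RPS26 -0.089 ± 0.053 (adjusted p = 0.837).

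Within each region limma called 0 of 38 genes too (0% of all tested probe sets in VFC, STC and M1C), and 0 in the test of whether asymmetry differed between regions (0%). An unadjusted p under 0.05 was reached by 1 gene in VFC (3.58% of all tested probe sets), 0 in STC (4.66%), 1 in M1C (5.63%) and 0 in the test between regions (3.75%). RPL31 in VFC had the largest difference. Left minus right was -0.40, -0.33, -0.15, 0.15 and -0.58 in animals 1 to 5. It was lower on the left in 4 animals and higher in animal 4, whose VFC left array is among the 4 set apart above (-0.26 ± 0.097, limma adjusted p = 1.00; -0.36 without the 4 arrays, adjusted p = 1.00). In STC and M1C the mean differences of RPL31 were -0.020 and 0.012, and its interaction had an adjusted p of 0.995. RPL10A, a large subunit protein, read lower on the left of VFC in 5 of 5 animals (-0.19 ± 0.10), as did RPS2 (-0.10 ± 0.057), where 4.89% of all tested probe sets had 1 direction throughout. RPL22 read 0.11 higher.

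In STC the smallest p belonged to RPS12, a small subunit protein, with -0.073, -0.49, -0.022, -0.082 and -0.024 in animals 1 to 5. All were below 0 (5.54% of all tested probe sets had 1 direction throughout), but animal 2 made up most of the mean of -0.14 ± 0.067 (limma adjusted p = 0.999). RPL26L1 had -0.18 ± 0.099, with -0.50, 0.052, -0.56, 0.041 and 0.054 in animals 1 to 5. RPL23A had -0.12 ± 0.084, with 0.19, -0.18, 0.048, -0.50 and -0.15. The lowest values belonged to animal 3 for RPL26L1 and animal 4 for RPL23A, whose right STC arrays are among the 4 set apart above. In M1C, RPS23, a protein of the decoding centre, read higher on the left by 0.13, 0.090, 0.16, 0.14 and 0.059. It was higher in 5 of 5 animals, and 0.11 ± 0.051 had a limma adjusted p of 0.87. The mean level of RPS23, 6.34, lay near the filter at 6.04. RPL23A read lower on the left of M1C in 5 of 5 animals (-0.18 ± 0.084, adjusted p = 0.87) and RPL39, a small protein lining the exit tunnel, higher in 5 of 5 (0.10 ± 0.055, adjusted p = 0.879).

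Left M1C read higher than right M1C for 27 of 38 genes, or 71.1% against 51.6% of all tested probe sets, with a median of 0.031. In M1C 6 genes moved the same way in 5 of 5 animals (7.26% of all tested probe sets). Left minus right of the mean over the 38 genes was 0.023, 0.055, 0.024, -0.0021 and 0.030 in M1C of animals 1 to 5. Left was higher in 4 of 5 animals. In VFC 16 of 38 genes read higher on the left (42.1%, against 49.8% of all tested probe sets) and in STC 17 (44.7%, against 52.7%). These counts were 27, 16 and 20 in M1C, VFC and STC without the 2 arrays, and 27, 17 and 15 without the 4. Some cell type markers also read unequal between the sides, though 0 passed the adjusted threshold. Median left minus right of the 4 meningeal markers was -0.85 in STC and 0.27 in M1C. It was -0.30 for the large-axon markers in M1C and 0.19 for the oligodendrocyte markers in VFC. The part of tissue make-up in the left minus right values of the ribosomal protein genes was not tested.

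**Figure D3:**
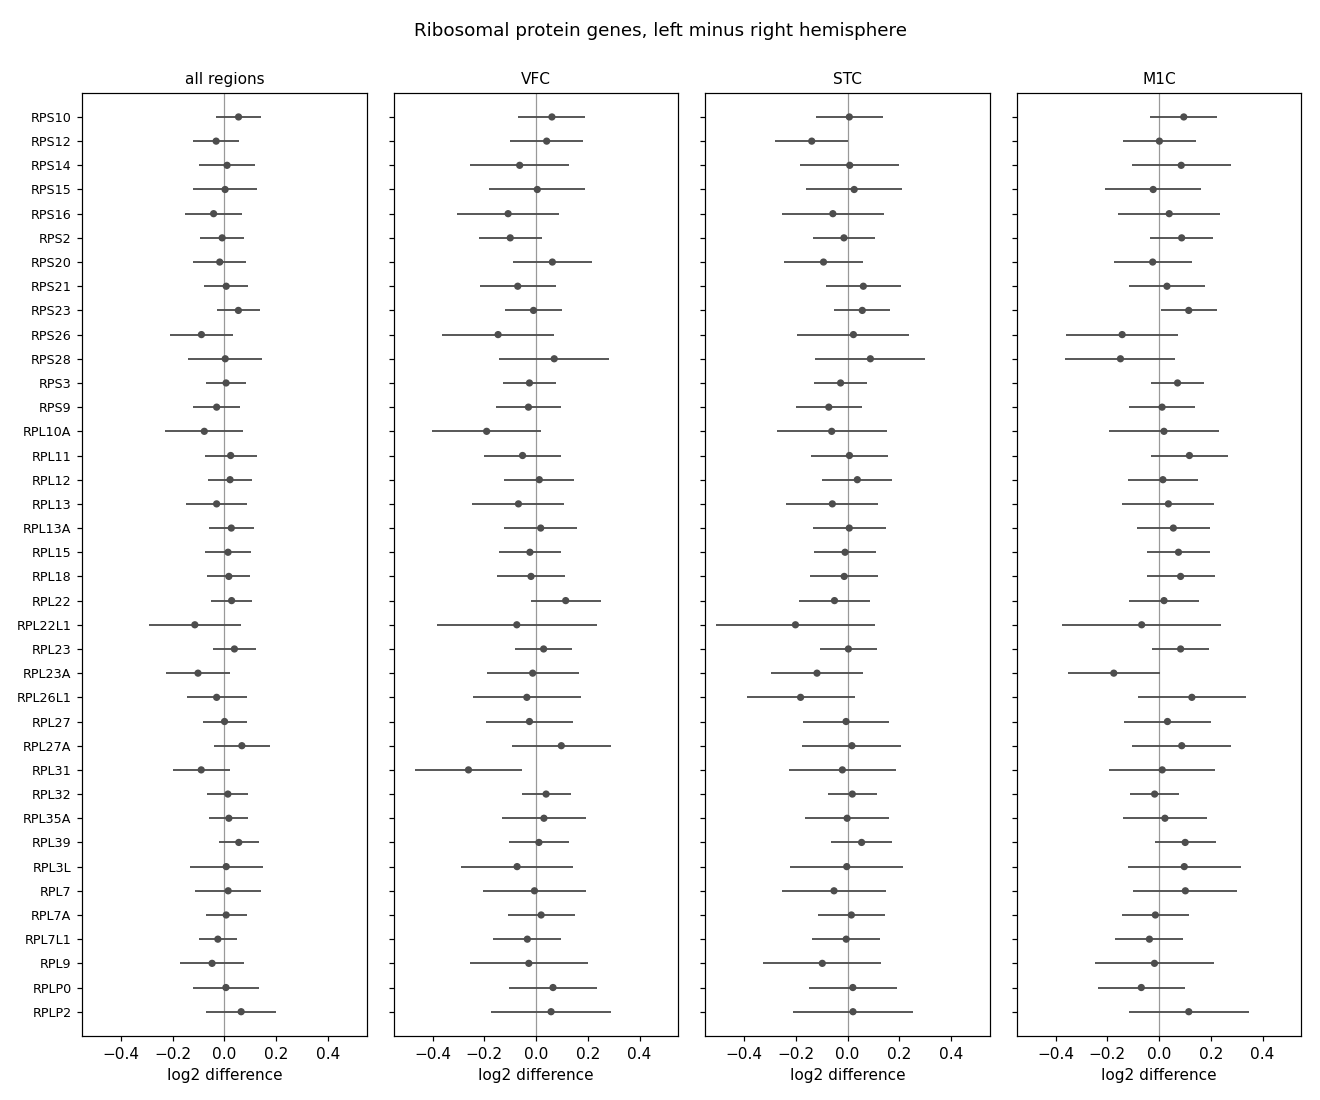
Left minus right log2 differences (x axis) of the 38 tested ribosomal protein genes (y axis) over all regions and in VFC, STC and M1C; points are limma estimates over 5 animals and bars 95% intervals. All but a few intervals include 0, the exceptions by region being RPL31 in VFC and RPS23 in M1C, and none passed the adjusted threshold.

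Animals differed more than regions or hemispheres. As the median over the 38 genes, animal held 43.4% of the variance over the 30 arrays, against 22.9% over all tested probe sets, region 5.20% (against 8.73%) and hemisphere 0.808% (against 1.30%). Differences between regions that varied by animal held 16.6% (against 20.3%). Animal has more levels than region or hemisphere, and a term with more levels takes a larger share even without an effect. Each share is therefore set beside that of all tested probe sets. The share of animal was 86.3% for RPS2 and RPL23A, 86.0% for RPL23, 76.9% for RPS21 and 75.1% for RPLP2, and lowest for RPLP0 at 7.29%. The region share was highest for RPL15 (31.2%). The genes named here for their animal shares were picked after the values were seen.

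**Figure D4:**
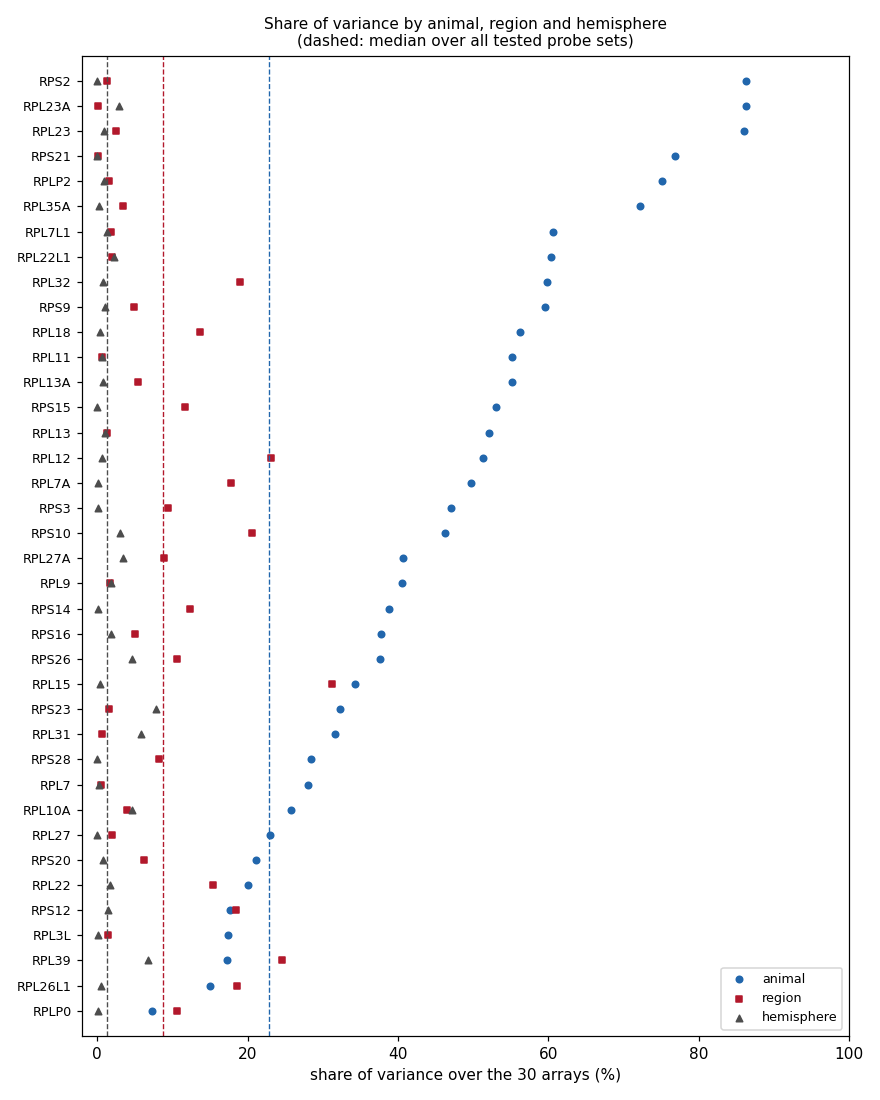
Share of the variance over the 30 arrays (x axis, percent) held by animal, region and hemisphere for the 38 tested ribosomal protein genes (y axis, sorted by the share of animal); dashed lines are medians over all tested probe sets. Most blue points lie right of the blue line at 22.9%, up to 86.3% for RPS2.

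In 4 of the 38 genes (10.5%, against 1.15% of all tested probe sets) all 6 arrays of an animal lay outside the range of all the other arrays. RPL23A was at 9.08 to 9.39 in animal 2, against 8.25 to 8.94 in the others. RPL23, a large subunit protein, was at 8.28 to 8.50 in animal 1, against 7.75 to 8.11. RPLP2, an acidic stalk protein that recruits elongation factors, was at 9.16 to 9.47 in animal 5, against 8.05 to 9.14. RPL32 was at 12.97 to 13.04 in animal 5, against 12.73 to 12.97, so that its groups nearly touched. The counts were 4 (10.5%, against 1.55%) without the 2 arrays and 5 (13.2%, against 2.08%) without the 4. By this rule, animal 2 for RPL23A and animal 1 for RPL23 stood apart in all regions and both hemispheres. The other animals were not all apart: for RPL23A, animal 4 ran from 8.25 to 8.75 and animal 1 from 8.47 to 8.73.

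RPS2, which lines the entry channel for messenger RNA, split the animals in another way. Its means over the 6 arrays of animals 1 to 5 were 11.25, 11.00, 10.82, 10.82 and 11.36. Animals 1 and 5 lay at 11.16 to 11.42 on all of their arrays, and the others at 10.64 to 11.11, with no overlap. RPS21, a small subunit protein, had means of 8.76, 8.86, 8.97, 9.09 and 9.21. Its 2 highest means belonged to animals 4 and 5, the males and the youngest, and with 5 animals no relation to sex or age was tested. RPLP0, the stalk protein often used as a reference gene, had means that differed by no more than 0.090 between animals.

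**Figure D5:**
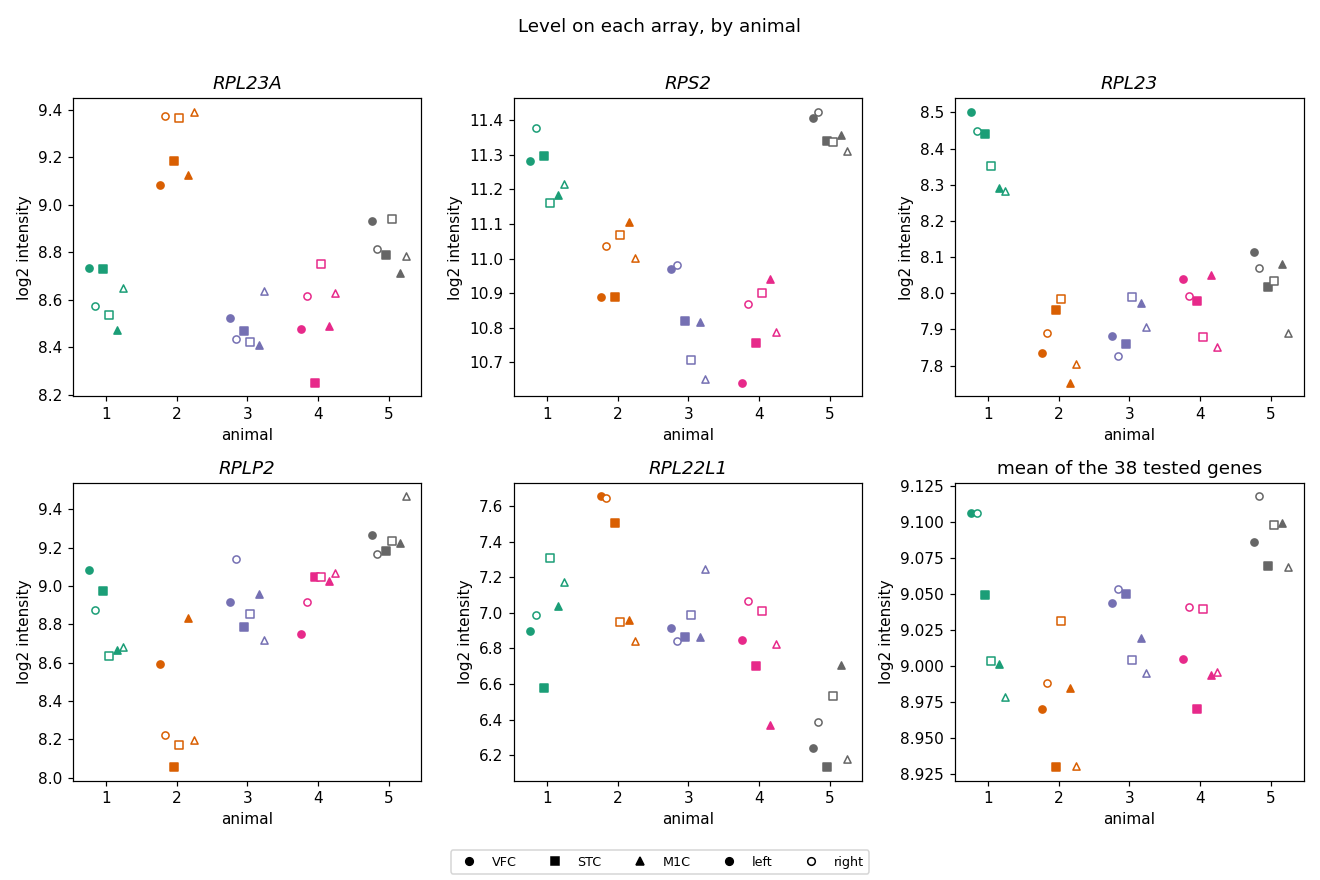
Log2 intensity on each of the 30 arrays (y axis) by animal (x axis) for RPL23A, RPS2, RPL23, RPLP2, RPL22L1 and the mean of the 38 tested genes; circles are VFC, squares STC, triangles M1C, filled for left and open for right. All 6 points of animal 2 stand above the rest for RPL23A (9.08 to 9.39), and animal 5 is lowest on average for RPL22L1 (6.36).

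Over the arrays the genes moved together only in part. After group means were subtracted, the correlation of a gene with the mean of the other 37 had a median of 0.41 and was positive for 28 of 38. These r are over 30 arrays of 5 animals that share tissue pieces, preparation and scaling, and are a description. The most alike were RPL11 (0.78), which with RPL5 can bind the p53 regulator MDM2, and the large subunit proteins RPL13 (0.74), RPL27A (0.73) and RPL10A (0.71), with RPS23 (0.71). RPLP2 had 0.65 and RPLP0 0.0057.

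RPL22L1, the paralog of RPL22, ran against the rest with r = -0.79 (-0.80 without the 2 arrays, -0.81 without the 4). Its means were 7.00, 7.26, 6.95, 6.80 and 6.36 in animals 1 to 5, while the mean of the 38 genes was 9.04, 8.97, 9.03, 9.01 and 9.09. Animal 2 was thus highest for RPL22L1 and lowest for the group, and animal 5 the reverse. With animal means subtracted as well, r was -0.55, so the opposition was also there among pieces of 1 animal. This was not particular to RPL22L1. By the same measure RPL7L1 had -0.51, RPL35A and RPL9 -0.36 each and RPL31 -0.30, while other genes were positive, up to 0.68 for RPL18. In mouse, RPL22 protein represses RPL22L1. Here the RNA levels of the 2 genes had r = 0.084 with each other. Protein was not measured, and the repression was not tested. RPL22L1 also had the widest spread within groups (SD 0.41, against a median of 0.16 over the 38 genes and 0.15 over all tested probe sets). The next lowest r were those of RPS28 (-0.42), RPL26L1 (-0.39), RPL23A (-0.37) and RPL9 (-0.32), and that of RPL23A was 0.39 and that of RPS28 0.14 once animal means were subtracted.

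Of the paralogs, some of which can replace a core protein, RPL3L, RPL7L1, RPL22L1 and RPL26L1 were tested. RPL10L and RPL39L, known mainly from testis, were among the dim 10. In VFC minus M1C, RPL22L1 had 0.13 ± 0.11, RPL26L1 -0.13 ± 0.098, RPL3L -0.043 ± 0.063 and RPL7L1 0.034 ± 0.041. None of the 4 passed in any comparison between regions or hemispheres (limma adjusted p of 0.216 or more). RPL26L1 in STC minus M1C was the 1 with an unadjusted p under 0.05.

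Where a gene had several probe sets, they did not always follow each other. The pair of RPS28 had r = 0.97, and both read lower in VFC than in M1C (-0.11 and -0.12). The pair of RPL13A had r = -0.011, with VFC minus M1C at 0.074 for the brighter and -0.064 for the other. The brightest RPL39 probe set had r of 0.032 to 0.59 with its 4 others, 1 of which repeats the values of another. The dimmer RPL15 probe set had r = 0.29 with the brighter. It read 0.10 in VFC minus M1C and 0.096 in STC minus M1C, the same direction as the brighter. RPS12 had r = 0.44 and RPL7 0.37 with their dimmer probe sets. RPL7 read -0.0089 in VFC minus M1C for the brighter and 0.063 for the other. A result on RPL13A, RPL39, RPL15, RPS12 or RPL7 can therefore depend on the probe set.

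Genes that work with the ribosome were compared in the same way, where 10.5% of all tested probe sets were called in VFC minus M1C, 2.36% in STC minus M1C and 0.214% in VFC minus STC. FAU, which encodes the small subunit protein RPS30, read 0.052 ± 0.040 higher in VFC than in M1C (limma adjusted p = 0.475), a size like that of the median ribosomal protein gene. Of 7 measured translation factors with TOP messages, 0 passed in either direction in any region comparison, with PABPC1, the poly(A) binding protein, at 0.18 ± 0.080 in STC minus M1C (adjusted p = 0.235). Of 23 initiation factors 0 passed, although 7 had an unadjusted p under 0.05 in VFC minus M1C (30.4%, against 24.3% of all tested probe sets), 6 of them lower in VFC. The smallest p was that of EIF5B, which joins the subunits, at -0.15 ± 0.048 (limma adjusted p = 0.066). Of 12 mTORC1 and TOP regulators 0 passed, with LARP1 at 0.11 ± 0.042 in VFC minus M1C (adjusted p = 0.111).

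Of 18 ribosome biogenesis genes, 1 was lower in VFC than in M1C (5.56%, against 5.32% of all tested probe sets) and 0 were higher, so the share was near that of all genes. The gene was RRS1, needed to build the large subunit (-0.26 ± 0.055, limma adjusted p = 0.0121). NHP2, a protein of the box H/ACA particles that modify ribosomal RNA, read 0.14 ± 0.050 (adjusted p = 0.104). The mitochondrial ribosome is a separate machine that translates the messages of the mitochondrial genome. Of its 58 tested protein genes, 4 were lower in VFC than in M1C (6.90%, against 5.32% of all tested probe sets) and 0 higher. The share of lower genes was thus again near that of all genes. The 4 were MRPS28 (-0.21 ± 0.041, limma adjusted p = 0.00805), MRPS14 (-0.21 ± 0.047, adjusted p = 0.0147), MRPS9 (-0.20 ± 0.048, adjusted p = 0.0184) and MRPS35 (-0.14 ± 0.035, adjusted p = 0.0282). The median over the 58 genes was -0.036, against 0.060 for the cytosolic group. MRPS14 was also lower in STC than in M1C (-0.23 ± 0.047, adjusted p = 0.0276), the only 1 of the 58 (1.14% of all tested probe sets). The difference between the 2 kinds of ribosomal gene was not tested.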

How the data were processed

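The deposited table holds log2 values made by the authors, per the submitters' processing notes, with RMA in oligo. RMA corrects for background, equalises the distributions of the arrays and summarises each probe set. No version is given in the sources used here, nor whether other arrays were normalized with these 30. Gene symbols came from the platform annotation, and 48 of 48 member symbols occur in the RefSeq gene table. No genome build was named, so no coordinates are given.

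Probe sets with a mean above the 40th percentile (24292 of 40489) were fitted with limma 3.58.1 in R 4.3.3 (tables read with data.table, version 1.17.8). For regions, hemispheres were averaged and animal was a block. For hemispheres, left minus right was taken within each animal, and for each region a shared spread was used. P-values were two-sided, by limma's moderated test, and adjusted by Benjamini-Hochberg over all tested probe sets at 0.05. Errors are moderated SE. Pairing comes from the animals: correlated by their deviations from group means, arrays of 1 animal had a median r of 0.32 (75 pairs), and arrays that shared neither animal nor group -0.082. Arrays give no read depth, and the number of animals limits the precision. The fits were tested on simulated data.

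Members, gene lists and marker lists were chosen with earlier results of these data known. Named genes are those past the threshold with the same direction in 5 of 5 animals, else the 5 (regions) or 3 (hemispheres) with the smallest p, the paralogs, the stalk proteins and the 5 most and least like the group. From other lists, up to 4 genes with the smallest p were eligible.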

Additional observations from a re-analysis of the deposited data

Results flagged for a closer look

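In each region, the level (mean of both hemispheres) and the left minus right difference of the named genes were checked for 1 animal far from the other 4. This marked 6 of 162 groups of 5 values (3.7%), and chance marks about 1 in 20. RPL11 in M1C was at 9.11 in animal 5, against 8.81 to 8.87 in the others. RPL7L1 in VFC was at 9.45 in animal 5, against 9.22 to 9.27. Left minus right of RPLP2 in STC was 0.34 in animal 1, against -0.12 to 0.0023. That of RPS10 in M1C was 0.33 in animal 3, against -0.022 to 0.076, where animal 3 had 10.32 on the left, the array that resembled animal 4, and 9.98 on the right, the lowest of its 6 arrays. That of RPS12 in STC was -0.49 in animal 2, against -0.082 to -0.022. That of RPS15 in M1C was 0.13 in animal 2, against -0.099 to -0.033.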

How the results depend on the processing

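The 1 gene called in VFC minus M1C (RPL12) became 0 without a replicate block for animal, 0 without a filter and 0 to 0 with each animal left out in turn. It became 2 (RPL12 and RPL15) with a filter at the 60th percentile and 2 with an intensity trend in the variance model. Over all alternatives the adjusted p of RPL12 lay between 0.0161 and 0.353, and its difference between 0.11 and 0.16. The counts of the other comparisons were 0 throughout. The median left minus right difference in VFC (-0.016) was 0.0048 with the filter at the 60th percentile and ran from -0.031 to -0.0074 with each animal left out. The other 96 alternative values of the medians moved by less than 1 SD over animals, and that of VFC minus M1C lay between 0.036 and 0.072. The left minus right median changed sign in STC (-0.040 to 0.028) and over all regions (-0.0024 to 0.010). There the SD over animals was 0.093 and 0.032, larger than the medians themselves. Without the replicate block no other call changed. Of the 27 gene-level differences followed, none turned its sign under these alternatives. The cause of the changes was not tested. With 5 animals, the 95% interval of a typical gene reached 0.12 to either side between regions and 0.16 between hemispheres of 1 region, and smaller differences could not be told from 0. The filter left 10 genes untested.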
